A study of Mus musculus with 4 samples.

Results

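Autophagy and lysosome regulators were followed as a list of 40 mouse genes in CD4 and CD8 T cells of the spleen, after and at allogeneic transplant. The list covers the machinery that builds an autophagosome, the receptors that load it, its transcription factors and 3 lysosomal or late endosomal proteins. Members were found by gene symbol, and 39 of the 40 were among the 21705 genes of the deposited table. The other, Atg101, stood there under the name 9430023L20Rik, was matched by its Entrez identifier, 68118, and was not counted as a member. Of the 39 members, 36 passed a filter on low values, set at a mean of 73.3 over all libraries, and the other 3 were Wipi1, Atg4c and Map1lc3a.

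The study made 4 RNA-seq libraries from flow-sorted C57bl/6 T cells, 1 each for CD4 after transplant, CD4 at transplant, CD8 after transplant and CD8 at transplant. Each library came from a pool of 5 animals made before sorting, with RNA from an RNeasy kit and a TruSeq mRNA library. The later libraries are labelled day 14 in one field and day 12 in their titles, so they are called "after transplant" here, and the titles of the earlier ones carry the word Donor. Whether the later libraries hold donor cells alone is not stated in the labels, no host strain, conditioning or other treatment is given there, and one label field names innate lymphoid cells where the cell type field names T cells.

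Depth was 16130872 estimated reads in CD4 after, 23633566 in CD4 at, 9873891 in CD8 after and 17972597 in CD8 at transplant. Values are on the deposited scale, estimated reads scaled per library, with nearly the same upper quartile in each as the values show. On that scale 1 read was worth 0.877, 0.664, 1.41 and 0.826 in the same order. Ratios on the log2 scale were taken after adding 14.7, which makes changes of low genes look smaller, while plain ratios carry 95% counting intervals. With 1 library per group there was no replicate check, no test between groups and no p-value, and the intervals cover counting error only. Called higher or lower below means at least 2-fold on the log2 scale with that addition.

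Marker genes were summed to check the labelled cell types. The summed values of the 8 T cell genes were 60564 in CD4 after, 71820.1 in CD4 at, 56399 in CD8 after and 72675 in CD8 at transplant, and none of the 8 was at 0. Of the CD4 lineage, Cd4, Zbtb7b and Cd40lg summed to 20824 after and 21531 at transplant in the CD4 libraries, and to 684 and 175 in the CD8 libraries. Most of the CD8 difference was Zbtb7b, with 566 after and 99.1 at transplant, and in CD4 Zbtb7b was lower, with 2223 and 4802. Genes of the CD8 lineage summed to 2645 and 2769 in the CD4 libraries against 30582 and 46522 in the CD8 libraries, after and at transplant. Most of the CD4 library sums was Runx3, with 2004 and 2157, and it had 2444 and 2676 in the CD8 libraries. Genes of other blood cells moved between the libraries as well. Neutrophil genes summed to 31913 after and 18505 at transplant in CD4, and to 27612 and 3316 in CD8. Of the 9 neutrophil genes kept, 3 were higher and 1 lower in CD4, and 8 were higher in CD8. Elane, among the higher ones in both, passed the filter only through the later libraries. It therefore had to be above its earlier value in at least 1 cell type, though not in each. The 5 erythroid genes kept were higher after transplant in both cell types. Sums of all 10 in the table were 6904 after and 1431 at transplant in CD4, and 5953 and 1140 in CD8. Epb4.2 was at 0 in CD8 at transplant. Tfrc alone made up 3106 and 866 of these sums in CD4, and 2790 and 1007 in CD8, after and at transplant. Slc4a1 and Rhag, among the 5, passed the filter only through the later libraries. Each therefore had to be above its earlier value in at least 1 cell type, though not in both. Macrophage genes went opposite ways: 7 of 12 were lower in CD4, with sums of 4870.5 after and 9422 at transplant, and 10 of 12 were higher in CD8, with sums of 4862 and 1326 and with Cd14 and Marco at 0 at transplant. Mrc1 and Adgre1, among the lower ones, passed the filter only through CD4 at transplant, so they had to be lower in CD4. Of the 6 dendritic cell genes kept, 1 was higher and 4 lower in CD4, with sums of 2656 and 6400.5, and 4 were higher in CD8, with sums of 4429 and 2436. Xcr1, the higher one in CD4, passed the filter only through the later libraries. It therefore had to be above its earlier value in at least 1 cell type, though not in each. Flt3 passed only through CD4 at transplant, so it had to be lower in CD4. Genes of NK and innate lymphoid cells summed to 2398 and 3156 in CD4 and to 3130.1 and 2610.2 in CD8. Of the 6 kept, 1 was higher and 4 lower in CD4, and 2 were higher and 1 lower in CD8. Klre1, among the lower ones, passed the filter only through the earlier libraries, so it had to be below its earlier value in at least 1 cell type. Eomes and Gata3 held 687 and 1231 of the CD4 sum after transplant, and 295 and 1034 of that at transplant. In CD8 they held 1858 and 639 after and 1614 and 587 at transplant. Ncr1 and Klra8, not kept, had 172 and 90.8 in CD4 at transplant and were at 0 in CD4 after. B cell genes never summed above 416. The part of these cells in the results below was not tested, and in such bulk libraries fewer cells of a type and less RNA per cell cannot be told apart.

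Autophagy encloses cytoplasm in a double membrane and delivers it to the lysosome. The Ulk1 kinase complex starts the process, a Becn1-containing phosphatidylinositol 3-kinase complex marks the site, and Atg9a, Atg2 and Wipi proteins feed and pattern the growing membrane. A pair of ubiquitin-like systems then attaches Atg8 proteins, the Lc3 and Gabarap families, to that membrane, where they bind cargo receptors such as Sqstm1. In T cells, autophagy is known to clear mitochondria and endoplasmic reticulum as cells leave quiescence and to sustain memory cells.

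Most of the machinery kept its level within 2-fold across transplant, and a small set stood apart. In CD4 cells, 4 of 36 members were higher after transplant (Optn, Gabarapl1, Atg7 and Lamp2) and 1 was lower (Atg2b). The 4 are 11.1% of members, where 12.1% of all 9933 genes kept were higher, and the 5 called either way are 13.9%, where the background was 23%. In CD8 cells, 3 members were higher (Gabarapl1, Optn and Lamp2), where 15% of all genes were, and 2 were lower (Atg2b and Atg14), where 11% were. The 5 called either way were again 13.9% of members, against a background of 26% of all genes. The shares of members higher or lower were near or below those of all genes, and no test covers that difference.

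A stricter rule asks that the whole counting interval lie beyond 2-fold. It kept 2 members higher in CD4, Optn and Gabarapl1, where 10.7% of all genes passed it, and 0 lower, where 8.75% did. In CD8 it kept the same 3 members higher, where 12.9% of all genes passed, and 1 lower, Atg2b, where 8.73% did.

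The median member had a log2 ratio of -0.22 in CD4, where all genes had -0.08, and -0.16 in CD8, where all genes had 0.02. Ratios were below 0 for 25 of 36 members in CD4 (69.4%, against 54.1% of all genes) and for 23 in CD8 (63.9%, against 49.0%). These signs move with the scaling of the libraries, and over 5 scalings 22 to 25 members were below 0 in CD4 and 21 to 27 in CD8. Another scaling shifted the median of all genes by up to 0.15 in CD4 and by up to -0.12 in CD8. Relative to that median the members' own stood 0.14 lower in CD4 and 0.18 lower in CD8. This gap was the same under each of the 5 scalings by construction, because a scaling shifts members and all genes nearly alike. The members together held 0.239% of the CD4 total after and 0.260% at transplant, and 0.230% and 0.25% in CD8.

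**Figure D1:**
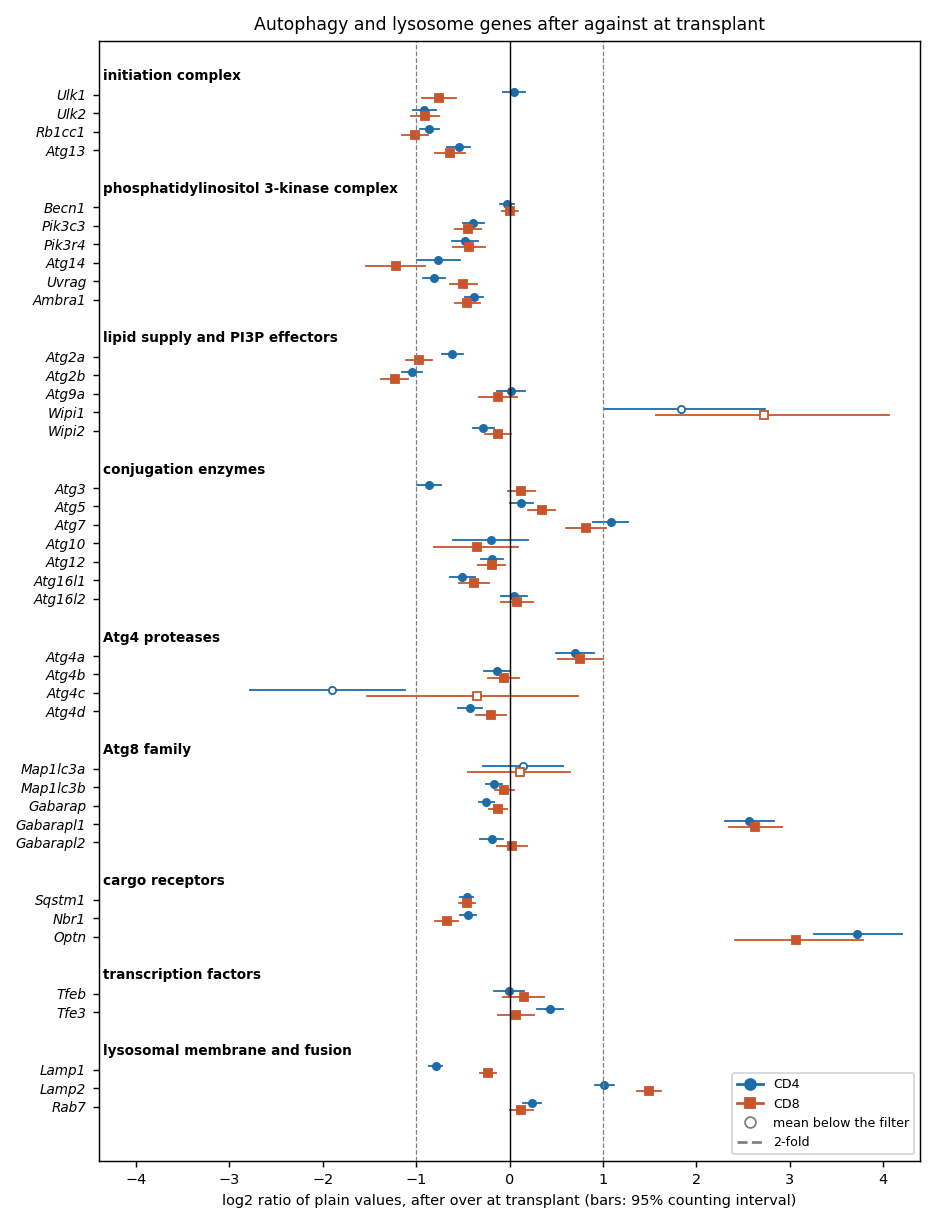
Log2 of the plain ratio after over at transplant (horizontal axis, nothing added) of every member in the table, grouped by role down the page, in CD4 (blue circles) and CD8 (orange squares) cells. Each point is 1 library against 1 library, open points are members under the filter, bars are 95% counting intervals and dashed lines mark 2-fold. Optn and Gabarapl1 lie far to the right in both cell types, and the initiation, lipid supply and phosphatidylinositol 3-kinase genes lie mostly left of 0.

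Of the initiation complex, Rb1cc1, the scaffold also called Fip200, had values of 979 in CD4 after and 1778 in CD4 at transplant, and 795 in CD8 after and 1605 in CD8 at transplant. Its plain ratio was 1.82-fold lower in CD4 and 2.02-fold lower in CD8 (1.84 to 2.22), with log2 ratios of -0.85 and -1.0, the second just short of the 2-fold call. Both later libraries lay below both earlier ones. Ulk2, one of the kinases, had 657 after and 1238 at transplant in CD4, and 690 and 1293 in CD8, log2 ratios of -0.90 and -0.89. The adaptor Atg13 had log2 ratios of -0.54 and -0.63, also short of 2-fold. The 4 genes of this complex had a median log2 ratio of -0.69 in CD4 and -0.81 in CD8.

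Ulk1, the kinase on which starvation and energy signals converge, parted the cell types. Its values were 942 in CD4 after and 911 in CD4 at transplant, and 463 in CD8 after and 781 in CD8 at transplant. Only the CD8 library after transplant was low. The log2 ratio was 0.05 in CD4 and -0.74 in CD8, where the plain ratio was 1.69-fold lower (1.49 to 1.92). The difference between the plain log2 ratios was 0.80 (0.59 to 1.02, counting error only). After transplant Ulk1 was 2.04-fold higher in CD4 than in CD8 (1.8 to 2.31), and its ratio to Ulk2 in the same library was 1.44 in CD4 after, 0.736 in CD4 at, 0.671 in CD8 after and 0.604 in CD8 at transplant. 9430023L20Rik, the Atg101 gene, which stabilises Atg13, had 361 and 420.3 in CD4 and 406 and 391 in CD8, after and at transplant.

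In the phosphatidylinositol 3-kinase complex, Atg14, the subunit that directs it to autophagosome formation, was lower in CD8. Its values were 198 in CD4 after and 336 in CD4 at transplant, and 150 in CD8 after and 347 in CD8 at transplant. The later libraries lay below the earlier ones in both cell types, by 1.7-fold in CD4 (1.45 to 1.99) and by 2.32-fold in CD8 (1.87 to 2.90), and the log2 ratios were -0.72 and -1.14. Uvrag, the subunit of the alternative complex of endosome maturation, had 757 after and 1328 at transplant in CD4, and 756 and 1065 in CD8, log2 ratios of -0.80 and -0.49. Becn1, shared by both complexes, was nearly level, with 2218 and 2263 in CD4 and 2263 and 2257 in CD8, after and at transplant. The lipid kinase itself, Pik3c3, and its regulatory subunit Pik3r4 had log2 ratios between -0.47 and -0.38, and Ambra1, which links the complex to Ulk1, had -0.38 and -0.45.

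Among the lipid supply genes, Atg2b was lower in both cell types. Atg2 proteins carry lipid into the growing membrane. Atg2b had 819 in CD4 after and 1692 in CD4 at transplant, and 680 in CD8 after and 1594 in CD8 at transplant. That is 2.07-fold lower in CD4 (1.92 to 2.23) and 2.34-fold lower in CD8 (2.12 to 2.60), log2 ratios of -1.03 and -1.21. Its paralog Atg2a had 888 and 1359 in CD4 and 779 and 1526 in CD8, after and at transplant, log2 ratios of -0.61 and -0.96. Both later libraries lay below both earlier ones for each paralog. Atg9a, the scramblase that seeds the membrane, had 564 and 558 in CD4 and 446 and 485 in CD8, and Wipi2, which recruits the conjugation machinery, had log2 ratios of -0.28 and -0.12.

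Wipi1, a relative of Wipi2, did not pass the filter. It had 40.3 in CD4 after and 11.3 in CD4 at transplant, and 43.7 in CD8 after and 6.61 in CD8 at transplant, from 46, 17, 31 and 8 reads. Its plain ratio was 3.57 in CD4 (2.01 to 6.65) and 6.62 in CD8 (2.98 to 16.7). The intervals are wide because the reads are few.

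The conjugation enzymes did not move as a block. Atg7, the E1-like enzyme that activates both Atg12 and the Atg8 proteins, had 517 in CD4 after and 244 in CD4 at transplant, and 496 in CD8 after and 281 in CD8 at transplant. It was 2.12-fold higher in CD4 (1.86 to 2.42) and 1.76-fold in CD8 (1.51 to 2.05), log2 ratios of 1.04 and 0.79, the second short of the call. Both later libraries lay above both earlier ones. Atg3, the E2-like enzyme that takes Atg8 from Atg7, had 633 in CD4 after and 1153 in CD4 at transplant, and 908 in CD8 after and 832 in CD8 at transplant. Its log2 ratio was -0.85 in CD4 and 0.13 in CD8, and the difference of the plain log2 ratios, -0.99 (-1.18 to -0.80), was the largest in size among the 36 members kept. The ratio of Atg7 to Atg3 in the same library was 0.817 in CD4 after, 0.212 in CD4 at, 0.547 in CD8 after and 0.338 in CD8 at transplant.

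The other conjugation genes stayed within 1.5-fold. Atg10, the E2-like enzyme of Atg12, had 76.3 and 87.6 in CD4 and 87.4 and 111 in CD8, after and at transplant. Atg12 had log2 ratios of -0.19 in both cell types, and its conjugation partner Atg5 had 0.12 and 0.34. Atg16l1, which brings the Atg12 and Atg5 conjugate to the membrane, had -0.50 and -0.37, and its paralog Atg16l2 had 0.05 and 0.08. The median of the 7 conjugation genes was -0.17 in CD4 and 0.08 in CD8.

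The Atg4 proteases trim Atg8 proteins before conjugation and free them again afterwards. Atg4a had 399 in CD4 after and 245 in CD4 at transplant, and 406 in CD8 after and 240.3 in CD8 at transplant, plain ratios of 1.63 and 1.69. These are above 1.5-fold and short of 2-fold, and both later libraries lay above both earlier ones. Atg4b, the broadest of the family, had log2 ratios of -0.13 and -0.06, and Atg4d had -0.42 and -0.19. Atg4c, under the filter, had 14.0 in CD4 after and 52.5 in CD4 at transplant, and 15.5 in CD8 after and 19.8 in CD8 at transplant, from 16, 79, 11 and 24 reads.

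Gabarapl1 stood apart within the Atg8 family. It had 580.3 in CD4 after and 98.3 in CD4 at transplant, and 684 in CD8 after and 111 in CD8 at transplant, from 662, 148, 485 and 134 reads. It was 5.91-fold higher in CD4 (4.93 to 7.11) and 6.18-fold higher in CD8 (5.10 to 7.54), log2 ratios of 2.40 and 2.48, nearly the same in both cell types. The other family members kept did not follow. Gabarap, its closest paralog, had 1955 and 2321 in CD4 and 1873 and 2046 in CD8, after and at transplant. Map1lc3b, the Lc3 protein most used as an autophagosome marker, had 1626 and 1832 in CD4 and 1688 and 1754 in CD8. Gabarapl2 had 737 and 843 in CD4 and 705 and 692 in CD8, and Map1lc3a, under the filter, had 62.8 to 76.3 over the 4 libraries.

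The ratio of Gabarapl1 to Gabarap in the same library does not depend on the scaling. It was 0.297 in CD4 after and 0.0423 in CD4 at transplant, and 0.365 in CD8 after and 0.0541 in CD8 at transplant, 7.01-fold and 6.75-fold higher after transplant. Divided by transcript length (the longest coding transcript of GENCODE M21), Gabarapl1 held 11.0% of the summed level per kilobase of the 5 family members in CD4 after and 1.78% in CD4 at transplant, and 13% in CD8 after and 2.24% in CD8 at transplant. On the same scale Gabarap held 50.04% and 56.7% in CD4 and 48.1% and 55.9% in CD8, and remained the highest of the family in each library. Map1lc3b came next, with 21.4% to 24.6% over the libraries, and Gabarapl2 had 14.6% to 16.6%. With the mean transcript length in place of the longest, the share of Gabarapl1 was 15.5% and 2.61% in CD4 and 18.1% and 3.26% in CD8. These paralogs and their processed pseudogenes are alike in sequence, and RSEM, named in the submitters' processing notes, estimates how reads shared by such copies divide among them. Their absolute levels rest on that estimate and are uncertain.

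**Figure D2:**
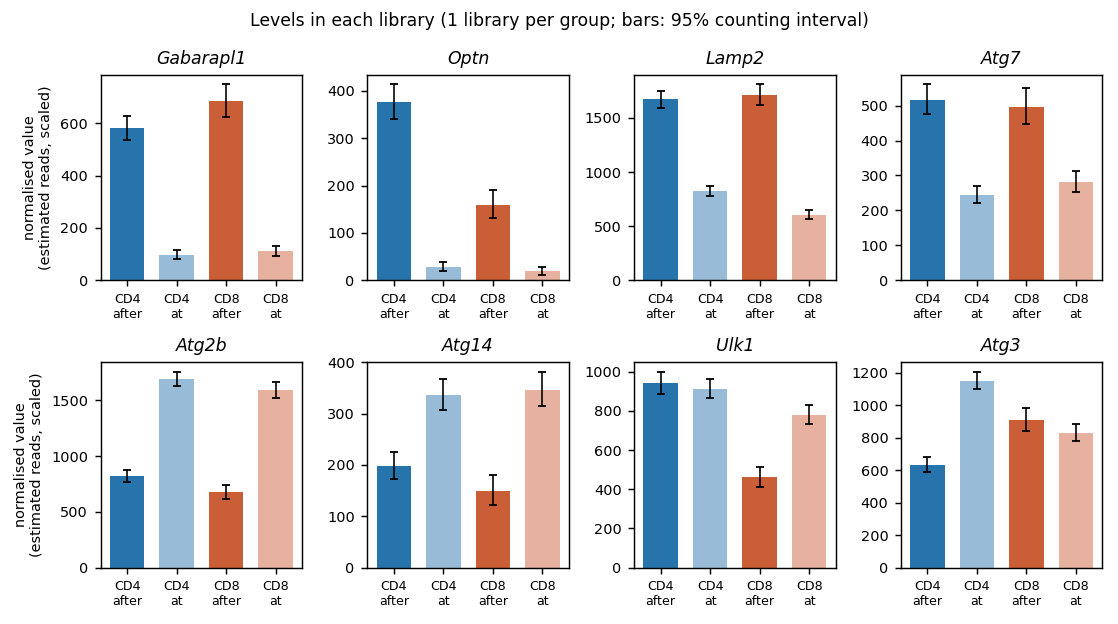
Deposited values (vertical axis, from 0) of 8 named members in each of the 4 libraries, in the order CD4 after, CD4 at, CD8 after and CD8 at transplant, with 95% counting intervals. Gabarapl1, Optn, Lamp2 and Atg7 are above their earlier values in both cell types, Atg2b and Atg14 below them, while Ulk1 is low in CD8 after transplant alone and Atg3 is lowest in CD4 after transplant.

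Of the cargo receptors, Optn had the largest log2 ratio of any member in CD4. Optineurin binds ubiquitin and Atg8 proteins and takes part in the removal of mitochondria and in NFkB signalling. It had 376 in CD4 after and 28.6 in CD4 at transplant, and 159 in CD8 after and 19 in CD8 at transplant, from 429, 43, 113 and 23 reads. The plain ratio was 13.2 in CD4 (9.61 to 18.5) and 8.39 in CD8 (5.32 to 13.8), and the log2 ratios, damped at these low values, were 3.18 and 2.37. Its earlier values lay under the filter limit of 73.3, so it was kept only through the later libraries and could hardly have been kept without differing. After transplant Optn was 2.36-fold higher in CD4 than in CD8 (1.91 to 2.93). The difference of the plain log2 ratios was 0.65, with an interval from -0.14 to 1.44 that includes 0.

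The receptors Sqstm1 and Nbr1 did not follow Optn. Sqstm1, or p62, had 2470.3 in CD4 after and 3399.7 in CD4 at transplant, and 2234 in CD8 after and 3055 in CD8 at transplant, log2 ratios of -0.46 and -0.45. Nbr1, a receptor of similar build, had 1412 and 1919.7 in CD4 and 1107 and 1768 in CD8, after and at transplant, log2 ratios of -0.44 and -0.67. The ratio of Optn to Sqstm1 in the same library was 0.152 in CD4 after and 0.0084 in CD4 at transplant, and 0.0713 in CD8 after and 0.00622 in CD8 at transplant. It was 18.1-fold higher after transplant in CD4 and 11.5-fold higher in CD8.

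The lysosomal membrane proteins Lamp1 and Lamp2 moved apart. Lamp2, whose isoforms act in autophagosome clearance and chaperone-mediated autophagy, had 1670.0 in CD4 after and 827 in CD4 at transplant, and 1711 in CD8 after and 608 in CD8 at transplant. It was 2.02-fold higher in CD4 (1.88 to 2.17) and 2.81-fold higher in CD8 (2.57 to 3.09), log2 ratios of 1.0 and 1.47, and both later libraries lay above both earlier ones. Lamp1, which also reaches the surface of degranulating killer cells, had 1953 in CD4 after and 3383 in CD4 at transplant, and 2310.3 in CD8 after and 2715 in CD8 at transplant, log2 ratios of -0.79 and -0.23. The difference of its plain log2 ratios between the cell types was -0.56 (-0.67 to -0.45). The ratio of Lamp2 to Lamp1 in the same library was 0.855 in CD4 after and 0.244 in CD4 at transplant, and 0.741 in CD8 after and 0.224 in CD8 at transplant, 3.50-fold and 3.31-fold higher after transplant. Rab7, the GTPase of late endosomes and lysosome fusion, had 1383 and 1172 in CD4 and 1223 and 1122 in CD8.

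Optn, Gabarapl1 and Lamp2 were higher in both cell types, as were the summed neutrophil and erythroid genes, whose ratios after over at transplant were 1.72 and 4.83 in CD4 and 8.33 and 5.22 in CD8. The erythroid sums include Tfrc, which was 1007 of 1140 in CD8 at transplant and had log2 ratios of 1.83 in CD4 and 1.46 in CD8. The summed macrophage genes had ratios of 0.517 in CD4 and 3.67 in CD8. The part of neutrophil and erythroid RNA in the values of these 3 members was not tested.

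**Figure D3:**
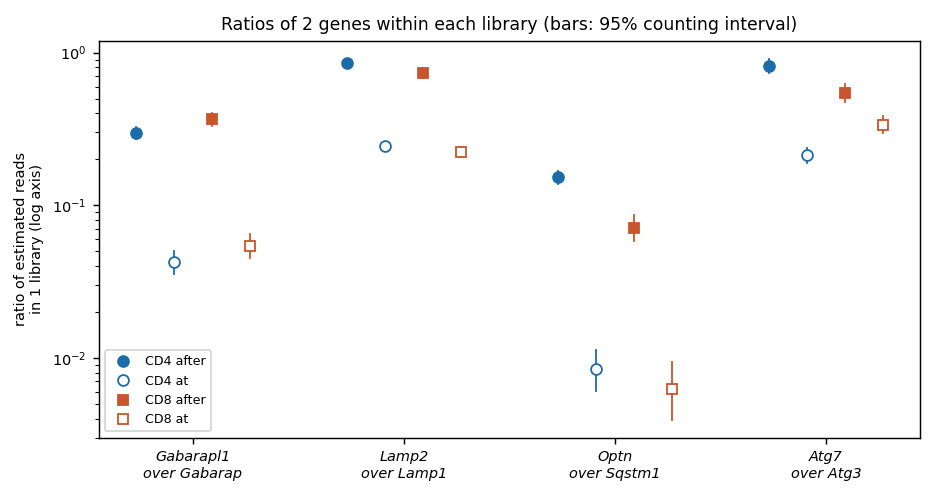
Ratio of paired members within the same library (vertical axis, log scale), in the order CD4 after, CD4 at, CD8 after and CD8 at transplant, with 95% counting intervals. The ratios of Gabarapl1 to Gabarap, Optn to Sqstm1, Lamp2 to Lamp1 and Atg7 to Atg3 are each above their earlier values in both cell types, and the last differs more in CD4 (3.85-fold) than in CD8 (1.62-fold).

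The transcription factors of the lysosomal programme changed little. Tfeb, which switches on lysosome and autophagy genes when it enters the nucleus, had 484 in CD4 after and 485 in CD4 at transplant, and 406 in CD8 after and 366 in CD8 at transplant. Tfe3, its relative, had 744 and 553 in CD4 and 528 and 503 in CD8, log2 ratios of 0.42 and 0.07. Neither came near 2-fold. RNA level does not report where these proteins sit in the cell.

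Tfeb and Tfe3 bind E-box type elements with the core CACGTG, so the members' start regions were searched for it. The windows ran from 250 bases before to 50 bases after the RefSeq start of each gene (build GRCm38.p6), and CACGTG reads the same on both strands. The motif was in 5 of the 33 members with a promoter entry (15.2%: Atg14, Atg3, Atg5, Atg7 and Lamp1) and in 2187 of all 27025 genes (8.09%). The longer form TCACGTGA, which contains CACGTG, was in 1 member (3.03%), Atg3, and in 304 genes (1.12%). The members Atg16l1, Rb1cc1, Becn1, Atg12, Pik3c3 and Map1lc3a had no entry. The stretches of named members that hold the core are given because Tfeb and Tfe3 bind it, 5′ to 3′ on the strand of the gene, with CACGTG in capitals: Lamp1 at chr8:13159080-13159170 (plus strand), Atg3 at chr16:45158715-45158783 (plus strand), Atg7 at chr6:114670944-114670989 (plus strand) and Atg14 at chr14:47568425-47568455 (minus strand).
Lamp1: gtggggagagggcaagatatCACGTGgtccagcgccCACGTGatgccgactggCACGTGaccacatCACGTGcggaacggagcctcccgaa
Atg3: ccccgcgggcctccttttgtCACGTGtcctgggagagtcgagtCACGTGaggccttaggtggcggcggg
Atg7: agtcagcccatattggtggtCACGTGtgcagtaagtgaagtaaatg
Atg14: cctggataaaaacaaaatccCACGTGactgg

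Members with the core moved in both directions. Lamp1 holds 4 copies and had log2 ratios of -0.79 in CD4 and -0.23 in CD8, Atg3 holds 2 copies and had -0.85 and 0.13, Atg7 holds 1 copy and had 1.04 and 0.79, Atg5 holds 1 copy and had 0.12 and 0.34, and Atg14 holds 1 copy and had -0.72 and -1.14. No copy was found in the windows of Gabarapl1, Optn, Lamp2 or Atg2b, which says only that these letters are not in these windows.

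CD4 and CD8 cells gave similar values for the list at transplant. None of the 36 members was called in CD4 against CD8 at transplant, where 6.4% of all genes were, 4.92% higher in CD4 and 1.48% lower. The log2 ratios of CD4 over CD8 ran from -0.30 for Atg10 to 0.46 for Atg3. After transplant 2 of 36 members (5.56%) were called, Optn and Ulk1, both higher in CD4, against a background of 3.37% of all genes, 2.42% higher and 0.956% lower. Neither had a counting interval wholly above 2-fold, as 1.52% of all genes did. The median member had a log2 ratio of 0.11 at transplant, where all genes had 0.14, and 0.05 after transplant, where all genes had 0.03. The first of these changes sign with the scaling: with trimmed mean of M-values scaling the members had -0.051 and all genes -0.022 at transplant.

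The change after transplant was also alike in the cell types. Across the 36 members the CD4 and CD8 log2 ratios had a Pearson's r of 0.92 and a Spearman's rho of 0.80, and across all 9933 genes 0.89 and 0.88. The points share libraries and genes are not independent replicates, so these are descriptions. Signs matched for 30 of 36 members (83.3%) and for 87.3% of all genes, and the median size of the difference was 0.14 for members and 0.21 for all genes. At 1.5-fold, 5 members were higher in each cell type, the same 5 genes (Atg7, Atg4a, Gabarapl1, Optn and Lamp2), where 20.2% of all genes were higher in CD4 and 24.9% in CD8. At that limit 8 members were lower in each, where 22.9% and 21.6% of all genes were, and 5 were shared, 62.5% of each list (Ulk2, Rb1cc1, Atg14, Atg2a and Atg2b). The other 3 were Uvrag, Atg3 and Lamp1 in CD4 and Ulk1, Atg13 and Nbr1 in CD8.

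**Figure D4:**
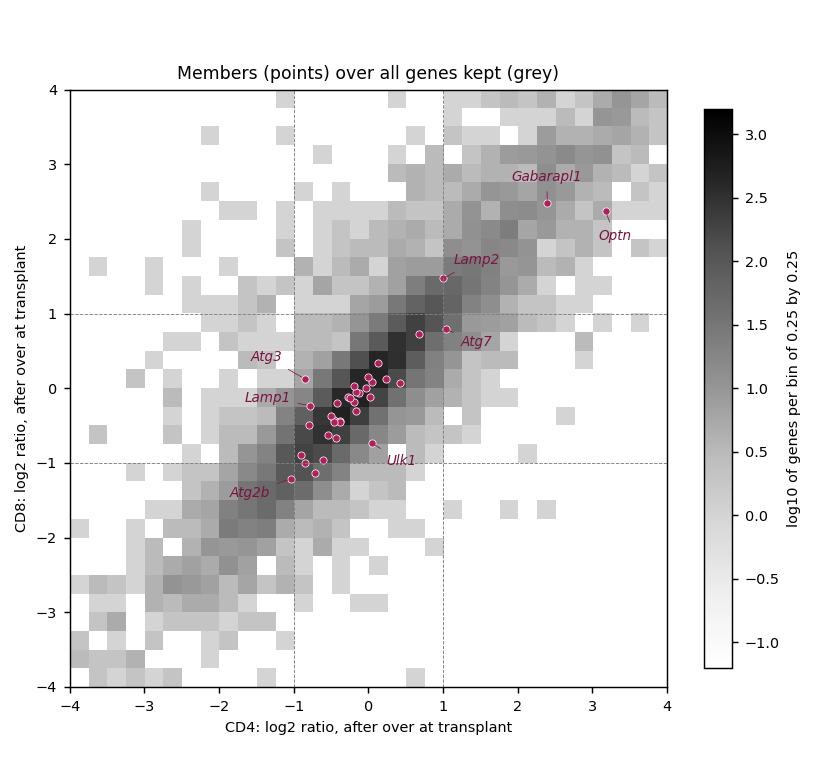
Log2 ratio after over at transplant in CD8 cells (vertical axis) against CD4 cells (horizontal axis), with the 36 members as points over the number of genes per bin (grey, log10 scale) of all 9933 genes, of which 213 lie outside the axes. Dashed lines mark 2-fold. Members follow the diagonal (r = 0.92), with Atg3, Ulk1 and Lamp1 off it and Optn and Gabarapl1 at the upper right.

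Wider lists of lysosome and autophagy genes, none of them members, gave a mixed picture. Their counts are read against all genes, of which 12.1% were higher and 10.8% lower in CD4, and 15% and 11% in CD8. Of 36 lysosomal hydrolases, 1 was higher and 8 lower in CD4, with a median log2 ratio of -0.08, and 4 were higher and 4 lower in CD8, with a median of 0.18. In CD4 that is 2.78% higher and 22.2% lower, and in CD8 11.1% each way. Arsb, an arylsulfatase, had 4769.8 in CD4 after and 918 in CD4 at transplant, and 6944 in CD8 after and 674 in CD8 at transplant. Hexa, a hexosaminidase subunit, was lower, with 328 and 1069 in CD4 and 241 and 785 in CD8, and so was Acp5, an acid phosphatase, with 1259.7 and 3648 in CD4 and 1251 and 5577 in CD8. Lipa, the acid lipase, had 968 and 3168 in CD4, where it was lower, and 929 and 1831 in CD8, a log2 ratio of -0.97. Lgmn, an endopeptidase that macrophages also make, had 104 and 564 in CD4 and 57.8 and 36.3 in CD8.

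Among 23 lysosomal membrane and cofactor genes, 1 was higher and 2 lower in CD4 (median -0.49), and 3 were higher and 2 lower in CD8 (median -0.32), and neither share lower, 8.70%, was above that of all genes. Npc2, which moves cholesterol out of lysosomes, had 3246 and 8701 in CD4 and 3151 and 8127 in CD8, after and at transplant, lower in both. The channel Tpcn1 was lower too, with log2 ratios of -1.34 and -1.53. Mcoln2, a calcium channel of the same compartment, had 304 and 31.2 in CD4, where it was higher, and 372 and 235 in CD8. Grn had log2 ratios of 0.99 and 1.46. Cd68, also a macrophage marker, had 115 and 189 in CD4 and 254 and 44.6 in CD8. None of 16 subunits of the V-ATPase, the pump that acidifies lysosomes, was called in either cell type, where 23% of all genes in CD4 and 26% in CD8 were called either way, and the medians were -0.24 and 0.04.

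Upstream of autophagy, 29 genes of the mTORC1 and AMPK pathways held 1 higher and 3 lower in CD4 (median -0.26) and 2 higher and 4 lower in CD8 (median -0.17). The shares lower, 10.3% in CD4 and 13.8% in CD8, were near those of all genes. Of the sestrins, which restrain mTORC1 when leucine or growth signals are short, Sesn1 and Sesn3 were lower in both, while Sesn2 was not called and had log2 ratios of 0.83 and 0.65. Sesn1 had 467 in CD4 after and 2336 in CD4 at transplant, and 223 in CD8 after and 2034 in CD8 at transplant, and Sesn3 had 742 and 1705 in CD4 and 457 and 1454 in CD8. Tbc1d7, a subunit of the TSC complex that inhibits mTORC1, was higher, with 166 and 26.6 in CD4 and 203 and 37.2 in CD8. Its call was the one higher call of the list in CD4. Tbc1d7 passed the filter only through the later libraries, so it had to be above its earlier value in at least 1 cell type, though not in each.

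Among 15 genes of fusion and tethering, 1 was higher and 1 lower in CD4 (median -0.17), and 1 was higher and 2 lower in CD8 (median -0.22), shares of 6.67% to 13.3%. Vamp8, a SNARE of autophagosome fusion, was the higher one in both, with 1795 and 840.0 in CD4 and 1705 and 624 in CD8, after and at transplant. Tecpr1, a tether of the same step, was lower in both, with 2289 and 6596 in CD4 and 1468 and 4121 in CD8. Among 16 further genes of selective autophagy, none was higher and 3 were lower in each cell type (medians -0.41 and -0.21), 18.8% of the list. The 3 were Calcoco1, Ccpg1 and Fam134b in both. Fam134b, a receptor of endoplasmic reticulum autophagy, had 801 and 3079 in CD4 and 539 and 1781 in CD8, and Sec62, another such receptor, was not called, with log2 ratios of -0.39 and -0.28.

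Among 22 other regulators, 3 were higher and 3 lower in CD4 (median -0.32), and 3 were higher and 7 lower in CD8 (median -0.26). That is 13.6% each way in CD4, near the shares of all genes, and 13.6% higher and 31.8% lower in CD8. Trp53inp2, among the higher ones in both, passed the filter only through the later libraries. It therefore had to be above its earlier value in at least 1 cell type, though not in each. Dapk1, among the lower ones, passed only through CD4 at transplant, so it had to be lower in CD4. Vmp1, a membrane scramblase needed for autophagosome formation, was higher, with 2596 and 839 in CD4 and 3719 and 716 in CD8, after and at transplant. Foxo1, a transcription factor of naive T cells that also drives autophagy genes, was lower, with 1124 and 6203 in CD4 and 1239.8 and 4635 in CD8. Bcl2l1, a survival protein that binds Becn1, had 1269 and 335 in CD4, where it was higher, and 494 and 279 in CD8, a log2 ratio of 0.79.

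**Figure D5:**
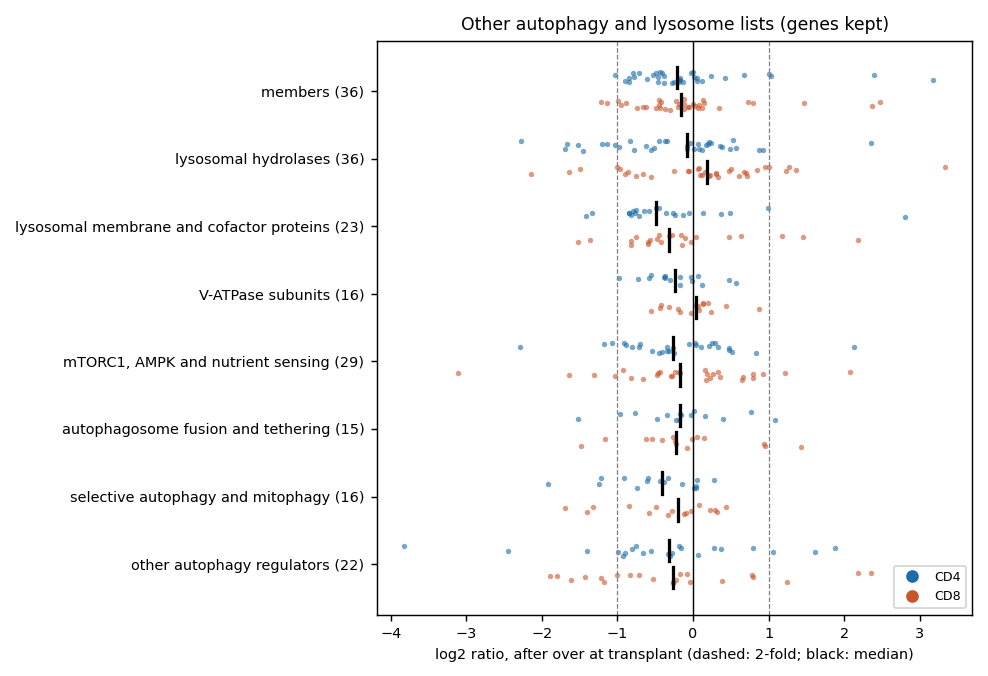
Log2 ratio after over at transplant (horizontal axis) of the genes kept in each of the 7 pathway lists, beside the members, in CD4 and CD8 cells. Points are genes, black bars mark medians and dashed lines 2-fold, and the list medians lie between -0.49 and 0.18 while single genes spread well past 2-fold both ways.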

How the data were processed

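RNA was measured in 4 pooled libraries, 1 per group, grouped by the labels' cell type and time point. The deposited table holds a signal per gene: estimated reads that the authors scaled per library, in steps that give the value of 1 read, with the upper quartile of genes above 0 near 1000 as the values show. RSEM 1.1.13, SAMtools 1.2 and build mm9 are named per the submitters' processing notes; the aligner, annotation and scaling step are not given in the sources used here. Divided by the step, 87.2, 86.4, 87.6 and 86.6% of values above 0 (CD4 after, CD4 at, CD8 after, CD8 at) were within 0.1 of a whole number, so they are estimated reads, and no count model was used. The floor of 3 reads stood at 2.63, 1.99, 4.23 and 2.48. The table has 2 further columns, with no header and no values, that were not used.

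Log2 ratios used a pseudocount of 14.7 (1 ppm of the libraries' mean total), the filter kept genes averaging 5 ppm or more, and a call was 2-fold. Intervals are 95% exact conditional binomial intervals on estimated reads. Alternatives were 4 scalings, 0.25 and 4 times the pseudocount, no filter and 20 ppm, 1.5-fold, and an interval wholly beyond 2-fold. Members and lists were chosen with earlier results of these data known, and the within-library ratios and levels per length after seeing values. Named were members called in any comparison, the largest ratio of each role and the 4 largest differences between cell types, and of each wider list up to 3 genes per cell type, some of which are given in the text only by count. Other members are given for completeness. The planned protein sequences were not used here. Calculations used Python 3.11.15, numpy 2.4.6, pandas 2.3.3 and SciPy 1.17.1, plots matplotlib 3.10.9, and the procedure was tested on simulated data.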

Additional observations from a re-analysis of the deposited data

How the results depend on the processing

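Gabarapl1 and Optn passed 2-fold in 7 of 7 settings of scaling and pseudocount in both cell types, with log2 ratios of 2.03 to 2.53 and 2.32 to 3.56 in CD4, and 2.13 to 2.59 and 1.49 to 2.85 in CD8. Lamp2 and Atg2b did so in CD8, while in CD4 Lamp2 and Atg7 passed in 6 of 7 and Atg2b in 4 of 7. Atg14 passed in 6 of 7 in CD8, and after transplant Optn and Ulk1 were 2-fold higher in CD4 than in CD8 in 6 and 3 of 7. None of these called ratios changed direction in those settings. Optn had 28.6 in CD4 and 19 in CD8 at transplant, under the filter limit of 73.3. It could hardly have been kept without being higher after transplant in at least 1 cell type, so passing 7 of 7 in both is no fully separate check on that result. Those settings also left the filter as it was. At 20 ppm Optn, with a mean of 9.95 ppm, and Atg14, with 17.6 ppm, were not kept.

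The counts are small, and those that moved by more than 1.5 times were as follows. Under trimmed mean of M-values scaling 5 members were lower in CD8, 1 was higher in CD4 than in CD8 after transplant, and the median of CD4 against CD8 at transplant was -0.051. Under median of ratios 0 were lower in CD4, 4 in CD8, 1 was higher in CD4 than in CD8 after transplant and the median at transplant was -0.074. Under equal totals 0 were lower in CD4, the CD4 median was -0.070 and 1 was higher in CD4 than in CD8 after transplant. With 4 times the pseudocount 2 were higher and 0 lower in CD4, 1 was lower in CD8 and 0 were higher in CD4 than in CD8 after transplant. Without a filter 2 of 39 were lower in CD4, and at 20 ppm, with 33 members kept, 1 was lower in CD8 and 1 higher in CD4 than in CD8 after transplant. At 1.5-fold 8 were lower in CD4, and 5 were higher and 8 lower in CD8. With the counting interval wholly beyond 2-fold 2 were higher and 0 lower in CD4, 1 was lower in CD8 and 0 were higher in CD4 than in CD8 after transplant. Apart from the filters, the 1.5-fold rule and the interval rule, which change by construction what can be counted, the cause was not tested.

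No paired analysis was possible because each group held 1 library. Depth limits Wipi1 and Atg4c, with under 100 reads in each library, and the spread between animals is unknown.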

Other observations

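Other paired members within the same library gave smaller folds. The ratio of Atg4a to Atg4b was 0.599 in CD4 after and 0.336 in CD4 at transplant, and 0.626 in CD8 after and 0.354 in CD8 at transplant, 1.79-fold and 1.77-fold higher after transplant. The ratio of Atg2a to Atg2b was 1.35-fold in CD4 and 1.2-fold in CD8, after over at transplant. That of Tfe3 to Tfeb was 1.35-fold in CD4 and 0.944-fold in CD8.

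Of single regulators outside the members, Dapk1, a kinase that phosphorylates Becn1, had 15.8 in CD4 after and 416 in CD4 at transplant, and 8.46 in CD8 after and 66.1 in CD8 at transplant. Dapk1 passed the filter only through CD4 at transplant, so it had to be lower in CD4. Trp53inp2, which binds Atg8 proteins in the nucleus and on autophagosomes, had 166 and 71.7 in CD4 and 161 and 24 in CD8, and passed the filter only through the later libraries. Epg5, a tether of autophagosomes and late endosomes listed as 5430411K18Rik, had log2 ratios of -0.97 in CD4 and -1.17 in CD8.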
